A study of Mus musculus with 6 samples.

Results

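The IgLON family is a set of 5 cell adhesion molecules, *Negr1*, *Lsamp*, *Ntm*, *Opcml* and *Iglon5*, and its messenger RNA was measured here in mouse brain after neuronal expression of the human long noncoding RNA AP1AR-DT, which the sample labels name AC109347.1. Members were taken by gene symbol, and all 5 were found among the 52390 listed genes and passed the filter on low counts with 21844 genes in all. RNA sequencing covered 6 male C57BL/6 mice, injected in the medial prefrontal cortex at 8 weeks of age with adeno-associated virus (AAV). The paper describes the mice injected with either vector as wild type. The 3 control mice received the empty vector. The 3 AP1AR-DT OE mice received a vector that expresses the lncRNA under the neuronal promoter of human synapsin I. EGFP, driven by a CMV promoter, was also part of the vector. The labels give the tissue only as brain, the methods describe cortical tissue, the paper elsewhere names the medial prefrontal cortex, and the age at tissue collection was not given in the sources used here. The 3 OE columns carry no mouse number, so these libraries are called OE A, B and C. Because the lncRNA is human and is not among the mouse genes of the table, the OE labels could not be checked by its level.

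IgLON proteins are short chains of immunoglobulin domains held to the outer face of the neuronal membrane by a glycosylphosphatidylinositol (GPI) anchor. They bind their own kind and each other across and along membranes, and they are known for roles in neurite outgrowth, axon guidance and synapse formation. NEGR1, the member the study centres on, has been linked by human genetics to depression and body weight.

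Of the family, 4 are very long genes and the other is compact. On GRCm38, *Negr1* (ENSMUSG00000040037) runs from 156561794 to 157316445 on chromosome 3, plus strand, a span of 754.7 kb. *Lsamp* (ENSMUSG00000061080) covers 2197.3 kb of chromosome 16, from 39984361 to 42181679 on the plus strand. *Opcml* (ENSMUSG00000062257, 27790775 to 28925410, plus strand, 1134.6 kb) and *Ntm* (ENSMUSG00000059974, 28994750 to 29963141, minus strand, 968.4 kb) lie beside each other on chromosome 9. *Iglon5* (ENSMUSG00000013367) takes up only 17.2 kb of chromosome 7, from 43472904 to 43490075 on the minus strand. The longest transcripts of the 4 long genes have a GC content of 42.87% to 43.7%, and that of *Iglon5* has 60.22%. None of the 100-base stretches of a member's longest transcript (0.0%) occurred in another gene, so reads of the paralogs could be told apart.

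The 250 bases before the RefSeq start of *Negr1* and *Iglon5* are shown because these were the members called, in opposite directions. The study also concerns the promoter of NEGR1. The distance of the human region it examined is counted from the translational start in its methods and from the transcription start in its results. By the latter the region lies further upstream than such a window, and by the former its place is not settled. The windows shown are chr3:156561544-156561793, plus strand, and chr7:43490212-43490461, minus strand (RefSeq, GRCm38.p6). They are written 5′ to 3′ with capitals for a GC box (GGGCGG) or CCAAT box (CCAAT) on either strand.
Negr1: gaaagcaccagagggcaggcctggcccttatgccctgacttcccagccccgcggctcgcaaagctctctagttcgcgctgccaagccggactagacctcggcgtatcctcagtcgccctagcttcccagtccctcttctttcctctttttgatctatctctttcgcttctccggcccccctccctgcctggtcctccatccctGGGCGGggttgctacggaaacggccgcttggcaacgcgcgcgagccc
Iglon5: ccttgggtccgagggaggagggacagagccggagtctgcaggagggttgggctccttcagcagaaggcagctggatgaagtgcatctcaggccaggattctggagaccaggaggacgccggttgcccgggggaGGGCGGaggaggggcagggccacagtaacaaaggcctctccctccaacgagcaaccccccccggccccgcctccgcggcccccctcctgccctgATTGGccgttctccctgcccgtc
*Negr1* had a GC box 47 bases before the start, and *Iglon5* had a GC box 117 bases and a CCAAT box, on the opposite strand, 23 bases before it. Of 32851 mouse promoters of this length, 32.74% held a GC box and 33.85% a CCAAT box. The window of *Negr1* was 63.6% GC with 19 CpG sites and that of *Iglon5* 68.8% GC with 13, where the median promoter had 52.4% and 6. A short form of the binding motif of NRF1 (ATGCGC), the transcription factor that the study examined, was in 5.68% of promoters and, among the members, was found in 1 of the alternative windows of *Lsamp*, 103 bases before its start, and not in those of *Negr1* or *Iglon5*. A match is a description of letters only, and its absence concerns this window alone. The NRF1 motifs that the study predicted in the human promoter do not contain ATGCGC on either strand. The search could therefore not find sites of that form, and no conclusion on NRF1 sites is drawn from it. RefSeq windows were found for all 5 members, and that of *Iglon5* lies a little upstream of the start given in the gene annotation used for the span.

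Library totals were 42061721 to 54668294 counts, and the members rested on 1468 counts (*Iglon5*, lowest library) to 9811 counts (*Negr1*, highest library). Pan-neuronal markers were present in every library. Libraries stood apart in markers of brain regions other than the stated cortex. The summed level of the 7 of 8 hypothalamic markers that passed the filter was 511.8 CPM (counts scaled to a common library size) in control 2 and 79.04 in control 3, against 25.07 in control 1 and 23.89 to 30.0 in the OE mice. The 4 of 5 choroid plexus markers that passed summed to 3817 CPM in control 3 and to 44.26 to 61.01 in the other libraries, and *Kcnj13*, which did not pass, had 1970 counts in control 3 and 0 in 3 libraries. Thalamic markers (4) summed to 521.5 CPM in control 3 and to 89.73 to 160.8 in the other libraries. Striatal markers (6) summed to 1839 CPM in OE A and 993.3 in control 1, against 269.9 to 703.1 elsewhere. *Slc17a7*, the vesicular glutamate transporter of cortical excitatory neurons, was at 3.86 CPM in control 2, 28.2 in control 1 and 87.2 in OE C, against 230.6 to 463.3 in the other 3 libraries. Values of the members without controls 2 and 3 together, and calls that end without any other library, are given with each result. The omission of controls 2 and 3 left control 1 as the only control, the one with the highest striatal sum. Only the log2FC is therefore given for it.

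A gene was called when edgeR's quasi-likelihood test gave an unadjusted P under 0.05 and the log2 fold change (log2FC, OE minus control) exceeded 0.32 in size, the thresholds the study used. Of the 5 members 2 were called: *Negr1* was lower and *Iglon5* higher in AP1AR-DT OE mice. Of all genes tested, 12.2% were called in either direction, 7.15% lower and 5.1% higher. *Lsamp*, *Ntm* and *Opcml* were not called. With edgeR, 0 members had a Benjamini-Hochberg adjusted P under 0.05 and 2 had an unadjusted P under 0.05, and under 17 alternatives, DESeq2 and limma-voom included, the lowest adjusted P of any member was 0.13. Of all genes tested, 6 passed that adjusted threshold, which is 0.0275%. In a bulk sample, fewer cells that express a gene and less RNA per cell cannot be told apart.

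**Figure D1:**
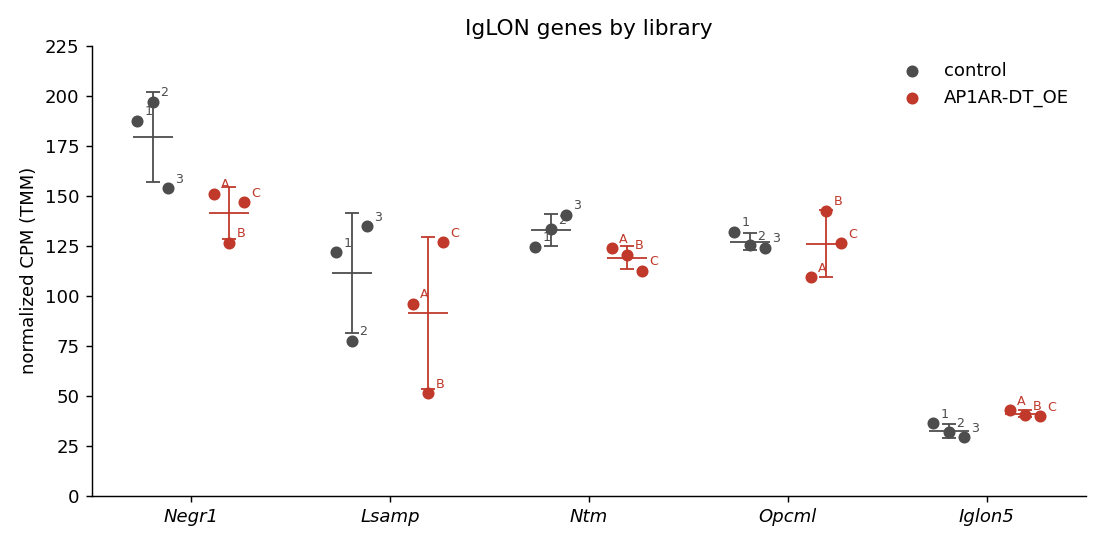
Normalized CPM of the 5 IgLON genes in each of the 3 control and 3 AP1AR-DT OE libraries, with the mean and SD of each group. *Negr1* and *Ntm* lay lower and *Iglon5* higher in all OE libraries, while *Lsamp* ranged from 51.4 to 134.75 CPM across both groups.

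*Negr1*, a synaptic adhesion molecule of cortical and hippocampal neurons, was at 187.5, 197.0 and 153.9 CPM in controls 1 to 3 and at 151.1, 126.5 and 146.7 CPM in OE A to C. Every OE library was below every control, although the margin between control 3 and OE A was narrow. The mean was 179.5 ± 22.6 CPM (SD, n = 3) in controls and 141.4 ± 13.1 (SD, n = 3) in OE mice, 0.788 times the control mean. The log2FC was -0.34 (SE 0.123, 95% interval -0.63 to -0.053), with an edgeR adjusted P of 0.297, and *Negr1* ranked 1963 by P among the genes tested. An exact two-sided permutation test gave p = 0.1, the smallest that 3 against 3 allows. Among all genes tested, groups did not overlap in 22.4%, and 12% them apart with OE lower. Left out in turn, controls 1 and 2 and OE B and C each ended the call, at log2FC of -0.31, -0.262, -0.27 and -0.36. Without controls 2 and 3 together, which left control 1 as the only control, the log2FC was -0.40.

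*Iglon5*, known as the target of autoantibodies in a human sleep and neurodegenerative disorder, was at 36.2, 31.8 and 29.4 CPM in controls and at 42.8, 40.4 and 39.8 CPM in OE mice. All OE libraries lay above all controls. Its mean was 32.4 ± 3.45 CPM in controls and 41.0 ± 1.60 in OE mice (SD, n = 3 each), a ratio of 1.26. The log2FC was 0.34 (SE 0.110, 95% interval 0.079 to 0.60), with an edgeR adjusted P of 0.295 and rank 1275 by P. The exact permutation p was again 0.1, and 10.4% of genes tested had non-overlapping groups with OE higher. Without control 3 the log2FC was 0.285 and without OE A 0.31, and neither was called. Without controls 2 and 3 together, against control 1 alone, it was 0.18.

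*Lsamp*, the limbic system-associated membrane protein, varied most of all members. It was at 121.9, 77.6 and 134.8 CPM in controls and at 96.0, 51.4 and 126.7 CPM in OE mice. The groups overlapped, and the highest library held 2.62 times the lowest. OE B was lowest and control 2 next. Group means were 111.4 ± 30.0 and 91.4 ± 37.9 CPM (SD, n = 3 each), and the log2FC of -0.29 had a 95% interval of -1.09 to 0.51 (edgeR adjusted P = 0.710). Without OE B the log2FC was 0.00045, and without controls 2 and 3 it was -0.41.

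*Ntm* (neurotrimin), which promotes and restrains neurite growth depending on the neuron, was at 124.5, 133.3 and 140.6 CPM in controls and 123.8, 120.6 and 112.7 CPM in OE mice. The OE libraries were all lower, by less than 1 CPM where OE A met control 1. The log2FC of -0.16 (SE 0.0873, 95% interval -0.36 to 0.048) did not pass the test, with an edgeR adjusted P of 0.420. Without controls 2 and 3 it was -0.062.

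*Opcml*, first described as an opioid-binding protein, was at 132.1, 125.3 and 124.0 CPM in controls and 109.4, 142.6 and 126.2 CPM in OE mice. The OE libraries held both its lowest and its highest value, and their SD was 16.6 CPM against 4.35 in controls. The log2FC was -0.012 (95% interval -0.28 to 0.25, edgeR adjusted P = 0.968), and -0.066 without controls 2 and 3. *Opcml* and its chromosomal neighbour *Ntm* thus had intervals that both included 0.

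Levels can be set against each other only per length. Per kilobase of exon, *Negr1* (17.1 ± 2.16 CPM, SD, n = 3) and *Ntm* (16.4 ± 1.00) were the most abundant members in controls, and their libraries overlapped. *Iglon5* followed at 12.4 ± 1.31, then *Opcml* at 8.76 ± 0.30 and *Lsamp* at 6.47 ± 1.74, and none of these ranges overlapped with its neighbour. In OE mice *Iglon5* reached 15.6 ± 0.61 per kilobase, *Ntm* 14.7 ± 0.72 and *Negr1* 13.5 ± 1.25. The ranges of *Iglon5* and *Ntm* in OE mice, 15.2 to 16.3 and 13.9 to 15.3, overlapped. This order depended on the length used. With the length of the longest transcript, *Ntm* had the highest mean in both groups (41.96 in controls, 37.61 in OE mice). *Negr1* (36.02 and 28.38) and *Opcml* (19.04 and 18.88) followed, and *Iglon5* in OE mice, at 15.64, came after them. The control ranges of *Ntm* (39.34 to 44.42) and *Negr1* (30.89 to 39.53) overlapped on this length, and their OE ranges did not.

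As a share of the summed family level per kilobase, *Negr1* made up 24.6% to 31.0% in controls and 21.8% to 24.3% in OE mice. *Iglon5* made up 18.8% to 21.8% and 25.7% to 27.9%. Neither pair of ranges overlapped, while those of *Ntm*, *Opcml* and *Lsamp* did. For *Negr1* the margin between control 3 and OE A was narrow. The shares of a library add up to a fixed whole, so a higher share of *Iglon5* by itself lowers the others. On the scale of CPM, groups did not overlap in 22.4% of all genes tested, and shares have no such background. The shares were not corrected for GC content. With the length of the longest transcript, the *Negr1* shares did overlap (25.65% to 32.58% and 23.93% to 26.81%), and those of *Iglon5* did not (9.31% to 11.09% and 13.39% to 14.51%).

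**Figure D2:**
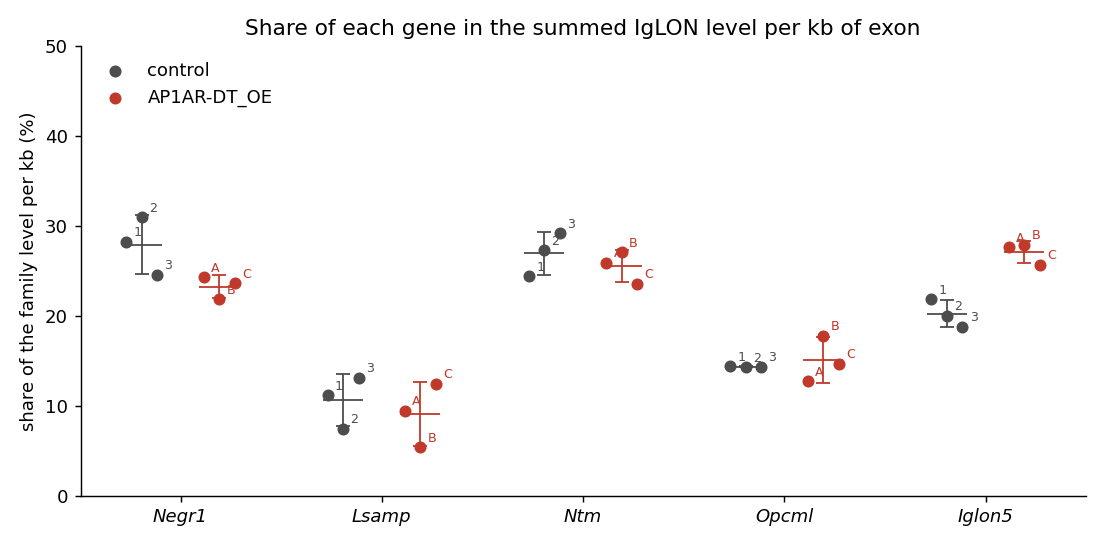
Share of each member, in percent, of the family's summed level per kilobase of exon in each library. The *Iglon5* share was 18.8% to 21.8% in controls and 25.7% to 27.9% in AP1AR-DT OE mice. Shares within a library depend on each other and were not corrected for GC content.

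The ratio of *Negr1* to a paralog within a library needs no scaling between libraries. It is not corrected for GC content, which was 42.97% for *Negr1* and 60.22% for *Iglon5*. With counts corrected for GC content of the longest transcript, their log2FC were -0.15 and 0.092, against -0.34 and 0.34 without. Corrected by mean GC over transcripts, they were -0.27 and 0.093. The *Negr1* count was 5.18, 6.2 and 5.24 times that of *Iglon5* in controls and 3.53, 3.13 and 3.68 times in OE mice, so every OE ratio was lower. With *Negr1* lower and *Iglon5* higher in all OE libraries, this separation and the permutation p that follows were fixed beforehand. They are no further result. The difference in log2 ratio was -0.68 (exact permutation p = 0.1, adjusted over 4 paralogs: 0.4). Against *Opcml* it was -0.32 (exact p = 0.2), against *Ntm* -0.18 (exact p = 0.3) and against *Lsamp* 0.0032 (exact p = 1.0), each with overlapping groups.

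**Figure D3:**
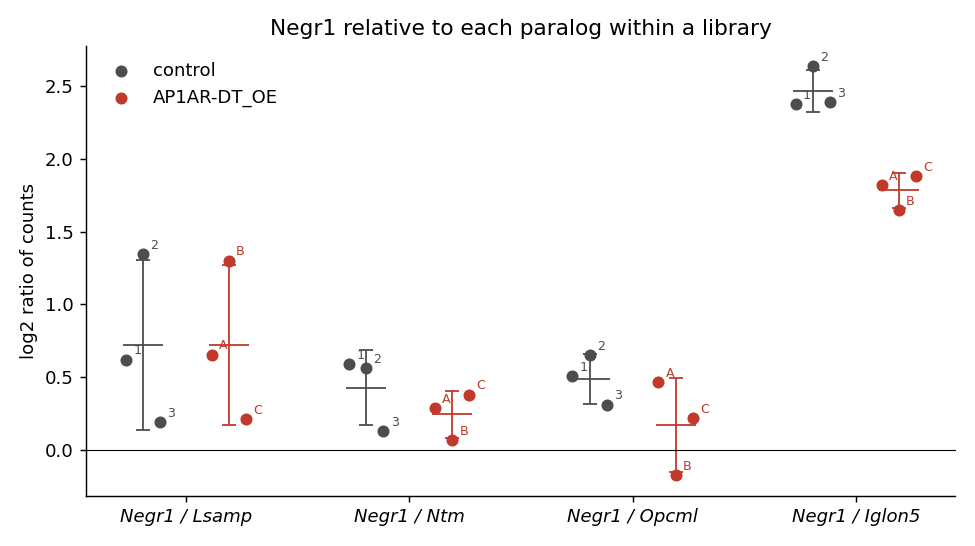
Log2 ratio of the *Negr1* count to that of each paralog in every library, with group means and without correction for GC content. Only the ratio to *Iglon5* separated the groups, at 2.47 ± 0.145 in controls and 1.78 ± 0.12 in OE mice (SD, n = 3 each).

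The directions of *Negr1* and *Iglon5*, the called members, ran with the base composition of their transcripts. When genes were sorted by GC content into equal bins, all 4 long members were in the bin of 41.13% to 43.78%, whose median log2FC was -0.21, with 15.1% called lower and 0.642% higher. *Iglon5* was in the bin with the most GC, where the median was 0.22, with 17.5% called higher and 1.33% lower. With counts corrected for GC content of the longest transcript, the log2FC of *Negr1* was -0.15 (edgeR adjusted P = 0.686) and that of *Iglon5* 0.092 (edgeR adjusted P = 0.812), and no member was called. The size of the change for *Negr1* depended on the GC measure. Mean GC over transcripts was 47.92% for *Negr1* and 60.43% for *Iglon5*. Corrected by it, the log2FC were -0.27 and 0.093, and again no member was called. Corrected for gene span, *Negr1* was again at -0.155 while *Iglon5* was at 0.296. Among 216 protein-coding genes over 500 kb, the class of the 4 long members, the median log2FC was -0.19, with 41 lower and 4 higher. The cause of these trends was not tested.

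**Figure D4:**
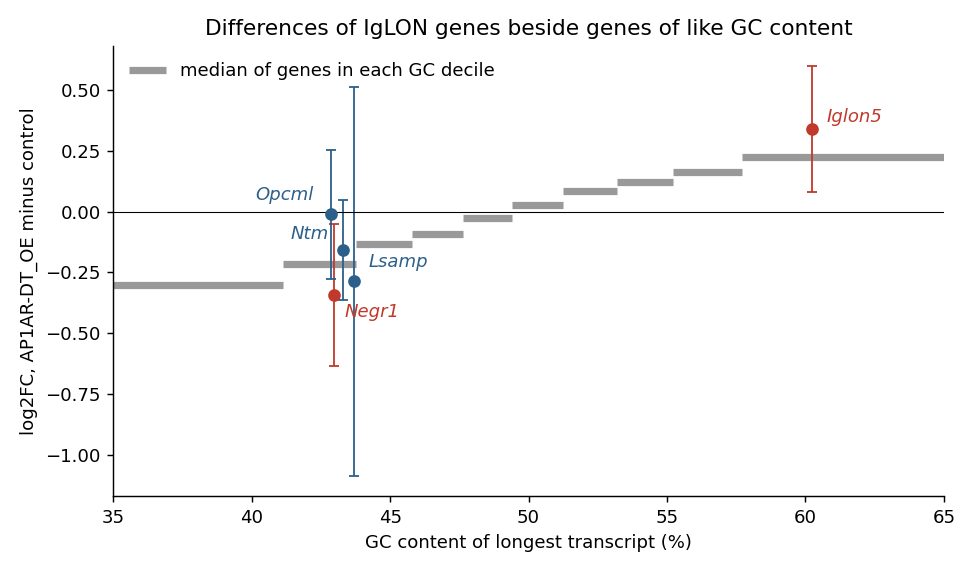
Median log2FC of genes in each of 10 equal bins of GC content of the longest transcript (percent), with the 5 members at their own GC content. *Negr1*, *Lsamp*, *Ntm* and *Opcml* sat in a bin with a median of -0.21 and *Iglon5* in one with a median of 0.22.

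Markers of other cell types were read against the 7.15% of all genes called lower and 5.1% called higher, in lists of 3 to 8 genes. The 6 oligodendrocyte markers, of which 2 were called lower, summed to 5048 to 10640 CPM in controls and 5081 to 5141 in OE mice. Of the hypothalamic markers 4 of 7 tested, and of the choroid plexus markers 3 of 4 tested, were called lower, and *Sim1*, a hypothalamic marker, had 0 counts in 4 libraries. The 6 cortical excitatory neuron markers summed to 1098 to 1937 CPM in controls and 1631 to 2827 in OE mice, with none called. *Camk2a* (1074.6 to 2227.5 CPM) made up most of this sum, while *Neurod6* ran from 0.08 to 23.0 CPM and *Neurod2* from 0.28 to 61.2 CPM across the libraries, both lowest in control 2 with OE C next. All 6 striatal markers had a log2FC above 0 (0.52 to 1.41, median 1.02) and summed to 269.9 to 993.3 CPM in controls and 635.4 to 1839 in OE mice, with none called. The 6 pan-neuronal markers, 2 of them called higher, summed to 3019 to 3559 and 3477 to 3895 CPM. Of the microglia markers 2 of 5 were called higher (215 to 267 CPM summed in controls, 223.8 to 314.4 in OE mice), as were 2 of 4 endothelial markers (54.54 to 62.1 and 67.29 to 101.8 CPM). Of the astrocyte markers 1 of 6 and of the thalamic markers 1 of 4 were called lower, and no marker of GABA interneurons or oligodendrocyte precursors was called. Set against the mean log2 level of the pan-neuronal markers in the same library, *Negr1* differed by -0.47 and *Ntm* by -0.29, both without overlap, and *Iglon5* by 0.21 with overlap (exact permutation p = 0.1, 0.1 and 0.3). The share of all genes without overlap on this scale was not computed. These markers had a median log2FC of 0.14, and the same reference lowered the difference of every member. Neither the members nor the reference were corrected for GC content here. The part of the other cell types in the values of the members was not tested. The omission of controls 2 and 3, which left a single control, cannot decide it.

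By the profile of log2 CPM across the 6 libraries, each centred on its own mean, the genes nearest to *Negr1* among 14018 were *Klhl13*, *BC002059* and *Dglucy*, with root-mean-square differences of 0.0438 to 0.0485. Nearest to *Iglon5* were *Ppan*, *Rps15a-ps5* and *Arhgap1* (0.0238 to 0.0341), to *Ntm* *Tmeff1*, *Cldnd1* and *Fam98a* (0.0309 to 0.0353) and to *Opcml* *Cyp2d22*, *Aff3* and *Gm5178* (0.0221 to 0.0348). *Lsamp* had no close match: *Zdhhc6*, *Trim23* and *Dach1* differed from it by 0.179 to 0.206. Within the family, *Ntm* and *Opcml* were the nearest pair (0.165) and *Lsamp* and *Iglon5* the farthest (0.574). *Rps15a-ps5* is a pseudogene, and its reads may come from its parent gene.

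Other adhesion molecules of the immunoglobulin superfamily were read beside the IgLON genes, for which the median log2FC was -0.158 and that of all genes tested -0.014. In the NCAM and L1 family, which act in axon growth and fasciculation, 2 of 6 were called, both lower, where 7.15% of all genes were called lower. *Ncam2* was at 34.6, 50.7 and 42.6 CPM in controls and 25.7, 21.9 and 24.97 in OE mice, with a log2FC of -0.82 (SE 0.157, edgeR adjusted P = 0.295). *Chl1* had a log2FC of -0.42 (SE 0.151, edgeR adjusted P = 0.297). Their longest transcripts, of 38.2% (*Ncam2*) and 39.9% (*Chl1*) GC, lay in the bin with the least GC, where 22% of genes were called lower. None of the 6 contactins, GPI-anchored like the IgLON proteins, was called, with *Cntn1* at -0.61 (SE 0.307) and *Cntn4* at -0.32 (SE 0.216). None of the 4 SynCAM genes was called, with *Cadm3* at 0.26 (SE 0.0959), under the fold threshold, and *Cadm1* at -0.37 (SE 0.189).

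Of 4 genes for proteins that cleave or bind IgLON members, none was called. *Adam10*, a protease that releases IgLON ectodomains, had a log2FC of -0.24 (SE 0.115) and *Fgfr2*, a receptor that binds NEGR1, -0.22 (SE 0.205). Of 16 genes of GPI anchor synthesis, *Piga*, in the enzyme of the first step (-0.56, SE 0.189), and *Pign*, an ethanolamine phosphate transferase (-0.36, SE 0.146), were lower, and *Dpm2*, a regulatory subunit of mannose donor synthesis (0.43, SE 0.152), was higher. Of 9 genes that attach or remodel the anchor, *Pgap3* was higher (0.63, SE 0.255), and *Pigk*, the catalytic subunit of the transamidase, was at -0.20 (SE 0.0979). These 3 of 16 and 1 of 9 called stand beside 12.2% called in either direction among all genes. The longest transcripts of *Piga* and *Pign* had 42.25% and 40.8% GC, in bins where 15.1% and 22% of genes were called lower. Those of *Dpm2* and *Pgap3* had 53.5% and 58.2% GC, in bins where 6.6% and 17.5% were called higher. The lowest edgeR adjusted P among these adhesion, partner and GPI genes was 0.295. *Nrf1* was at 16.7, 22.6 and 16.2 CPM in controls and 18.2, 20.3 and 19.7 CPM in OE mice, in overlapping groups, with a log2FC of 0.065 (SE 0.156, edgeR adjusted P = 0.865).

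**Figure D5:**
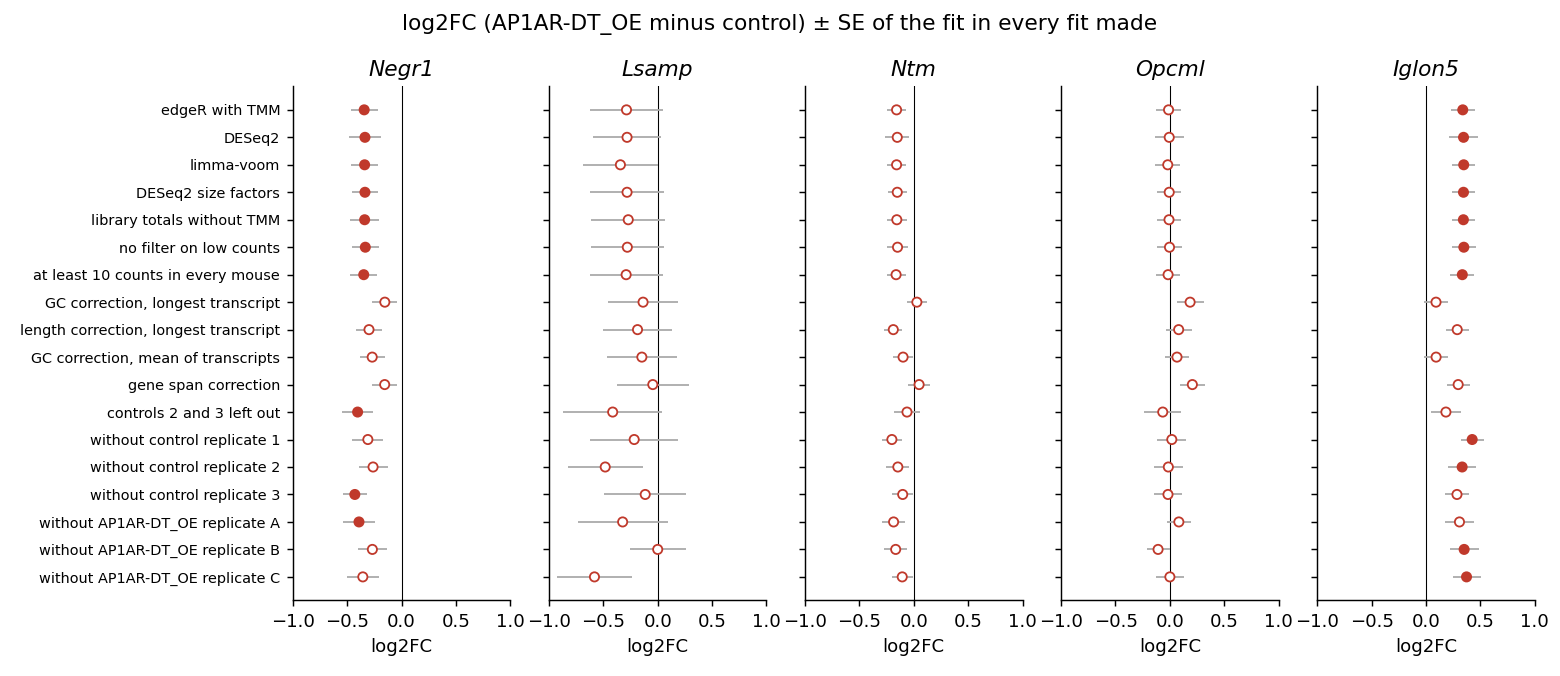
Log2FC of each IgLON gene under edgeR with TMM and under 17 alternatives, with the SE as bars and filled points where the gene was called. The fit without controls 2 and 3 held control 1 as its only control, so its bars and filled points are not read. *Negr1* stayed below 0 in all 17 (-0.43 to -0.15) and *Iglon5* above 0 in all 17 (0.092 to 0.42), whereas *Opcml* lay on both sides of 0.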

How the data were processed

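RNA from 6 mice was extracted with TRIzol, made into TruSeq libraries and sequenced as paired 150-base reads. The authors deposited a table of raw read counts per gene. Their methods name Bowtie2, GRCm38, StringTie, GENCODE and DESeq2, while the submitters' processing notes list mm9, TopHat2 2.0.4, HTSeq, SAMtools, Cuffdiff and edgeR 2.6.12. Which made the counts was not resolved, and use of strand was not stated. Bowtie2 does not split reads across introns, so spliced reads could be lost. Columns of the authors' own comparison (means, log2 fold changes, errors, p-values) were not used.

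Counts were filtered with filterByExpr, scaled with TMM and tested with edgeR 4.0.16 (quasi-likelihood, two-sided, no covariate) in R 4.3.3, with Benjamini-Hochberg adjustment over all 21844 genes. Normalized CPM used TMM library sizes. Exact permutation tests of log2 CPM used scipy 1.17.1. Profiles across libraries were compared on log2(CPM + 0.5) among genes with a mean log2 CPM of at least 2. Alternatives were DESeq2 1.42.0, limma-voom 3.58.1, other scalings and filters, corrections for GC content, length and gene span, and omission of libraries. The edgeR steps were tested on simulated data. The text names all 5 members, *Nrf1*, in each adhesion, partner or GPI list the 2 tested genes with the smallest P, and the 3 genes with the profile nearest to each member. *Pign* was added after its values were seen because it completes a count. The members and gene lists were chosen with earlier results of these data known. Intervals are 95% confidence intervals of the fitted log2FC, with dispersion moderated over all genes. They rest on these mice alone and do not give the range between mice.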

Additional observations from a re-analysis of the deposited data

How the results depend on the processing

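The number of genes called was 1565 after the GC correction by longest transcript and 1568 by mean GC over transcripts, and 1430 to 3508 when a library was left out, with 1620 without OE A and 1430 without OE B. The number of members called was 0 after either GC correction, the length correction or the gene span correction, and 1 whenever any library was left out. In the order GC of the longest transcript, length, mean GC and gene span, the log2FC was -0.15, -0.30, -0.27 and -0.155 for *Negr1* and 0.092, 0.29, 0.093 and 0.296 for *Iglon5*, none of them called. With length, edgeR's unadjusted P was 0.041 for *Negr1* and 0.031 for *Iglon5*, and with gene span 0.027 for *Iglon5*. Those calls ended at the fold threshold of 0.32, and the adjusted P was 0.31 to 0.32. In the remaining fits of this order the unadjusted P was 0.051 to 0.447. For *Opcml* these values were 0.186, 0.081, 0.066 and 0.21, all with the sign turned, and *Ntm* turned to 0.029 with GC of the longest transcript and to 0.049 with gene span. Without controls 2 and 3 *Iglon5* was at 0.18. With a library left out, the log2FC was -0.43 to -0.262 for *Negr1*, -0.58 to 0.00045 for *Lsamp*, -0.11 to 0.083 for *Opcml* (0.018 without control 1, 0.00011 without OE C) and 0.285 to 0.42 for *Iglon5*. The *Negr1* to *Lsamp* log2 ratio difference ran from -0.286 to 0.32. By the length of the longest transcript, control levels per kilobase were 36.02 for *Negr1*, 12.67 for *Lsamp*, 41.96 for *Ntm* and 19.04 for *Opcml*. The cause of these changes was not tested. DESeq2, limma-voom, other size factors and other filters called the same count of members, 1 up and 1 down, and DESeq2 gave 450 genes with an adjusted P under 0.05. The gene span and mean GC corrections, and the omission of controls 2 and 3, were chosen after seeing the data. No paired analysis was possible because the groups share a single mouse number in the labels and the OE columns carry none. With 3 mice a group, exact tests cannot go below 0.1.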

Other observations

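*Cntn1*, a GPI-anchored contactin, was at 90.2 CPM in OE B against 207.3 to 288.65 CPM in the other libraries, and OE B also held the lowest values of *Lsamp* and *Negr1*. *Mppe1*, which remodels the GPI anchor, ran from 4.03 CPM in control 1 to 103.9 CPM in OE A, with 57.7 in control 2 and 21.5 in control 3, a spread within groups larger than that of any IgLON member. Both genes were chosen here after their values were seen.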
